A study of Mus musculus with 50 samples.

Results

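The growth hormone and insulin-like growth factor (IGF) axis was described by 10 genes: the receptor gene Ghr, the signal carriers Stat5a and Stat5b, the feedback genes Socs2 and Cish, the circulating hormone gene Igf1, its partner gene Igfals, and the binding protein genes Igfbp1, Igfbp2 and Igfbp3. The members were chosen by name, and all 10 were found among the 24984 genes of the count files. They were measured in 38 RNA-seq libraries in 10 groups, with open chromatin around them in 12 ATAC-seq libraries. The untreated C57BL/6 mice, female by the study's methods, were 2.5 months (young) or 23 to 25 months (old), and kidney and liver each gave 4 RNA-seq and 3 ATAC-seq libraries per age. A second series held kidney and liver of C57BL/6 mice of 20 to 21 months that were given DMSO (the solvent) or 3C, with 4 RNA-seq libraries per group. A further one held cultured skin fibroblasts from P9 mice with DMSO or 3C, with 3 libraries per group. What 3C and P9 stand for is not given in the sources used here, so 3C is named as in the labels. No group carried a transgene by its labels, and the DMSO and 3C mice had no untreated group of their own age. The labels do not say that the libraries of a group came from separate animals or cultures, so the p-values measure the spread between these libraries, which may be technical in part.

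Growth hormone from the pituitary binds its receptor (encoded by Ghr) on liver cells, where the kinase JAK2 activates the transcription factors STAT5A and STAT5B. These bind DNA at the palindrome TTCNNNGAA and turn on Igf1 and Igfals together with Socs2 and Cish, whose products damp the receptor's signal in return. IGF1 secreted by the liver travels in blood in a complex with IGFBP3 and the protein encoded by Igfals, while IGFBP1 and IGFBP2 form smaller complexes, and IGFBP1 is known to rise with fasting. In rodents the temporal pattern of growth hormone release differs between the sexes and sets a male and a female pattern of liver genes through STAT5B.

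The sequences below show this palindrome where the chromatin or promoter data bear on it, in GRCm38.p6 (mm10) coordinates and on the plus strand. Capitals mark the 9 bases of the palindrome, searched as TTCNNNGAA, which reads the same on both strands. The Cish stretch and the Igfals stretch are from the RefSeq promoter windows (250 bases before to 50 after a start site), and the others are from the genome at peak summits. Cish was chosen because 2 copies lie 11 bases apart at its RefSeq start, in chr9:107296654-107296683.
Cish start site: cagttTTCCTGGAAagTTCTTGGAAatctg
Igfals was chosen for a copy 58 bases before one of its RefSeq starts, in chr17:24877981-24878257.
Igfals promoter: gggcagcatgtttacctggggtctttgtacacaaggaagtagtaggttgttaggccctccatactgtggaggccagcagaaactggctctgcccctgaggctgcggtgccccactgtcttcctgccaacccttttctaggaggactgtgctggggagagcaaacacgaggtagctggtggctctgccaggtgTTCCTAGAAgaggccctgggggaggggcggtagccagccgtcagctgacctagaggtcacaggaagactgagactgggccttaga
Socs2 lies on the minus strand, and 2 copies of one sequence lie 11 bases apart near its start, under a kidney peak at chr10:95416858-95416950.
Socs2 promoter: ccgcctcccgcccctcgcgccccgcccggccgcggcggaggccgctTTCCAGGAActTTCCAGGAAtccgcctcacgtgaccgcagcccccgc
Inside the Socs2 gene a peak of young liver that no old liver library had contains 1 copy, in chr10:95398844-95399043. Of its 200 bases, 86 belong to 2-base repeats.
Socs2 gene body: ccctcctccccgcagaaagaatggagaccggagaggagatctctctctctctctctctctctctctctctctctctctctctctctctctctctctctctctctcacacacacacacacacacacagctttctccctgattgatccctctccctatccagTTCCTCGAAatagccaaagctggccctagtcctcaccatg
Igf1 was chosen for a pair of copies 15 bases apart in its gene body, at chr10:87902016-87902215, under a peak in 2 young and 1 old kidney libraries. The same pair also lay under a peak in 2 young and 0 old liver libraries.
Igf1 gene body: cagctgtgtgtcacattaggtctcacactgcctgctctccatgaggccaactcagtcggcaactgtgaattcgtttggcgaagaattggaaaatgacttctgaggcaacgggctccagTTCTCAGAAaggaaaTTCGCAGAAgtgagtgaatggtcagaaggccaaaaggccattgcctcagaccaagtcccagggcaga
At least 1 copy was held by 8.3% of the 32851 RefSeq promoter windows and 2 or more by 0.457%. Of the members, 9 had a RefSeq window, 15 windows in all, and 3 of these windows held a copy, in Cish and Igfals. By the GENCODE vM21 annotation of the same build, Socs2 spans chr10:95385362-95417180, Cish chr9:107296026-107302784, Igf1 chr10:87858265-87937042 and Igfals chr17:24865997-24882010. Ghr spans chr15:3317760-3583492, Igfbp2 chr1:72824503-72852474, Igfbp1 chr11:7197782-7202546 and Igfbp3 chr11:7206086-7213923, and Stat5b (chr11:100780731-100850724) lies beside Stat5a (chr11:100859351-100885169). The search was by letters, and whether STAT5 binds at these places was not measured.

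The libraries held 14.2 to 43.7 M reads in genes, and the groups matched their labels by marker genes. The 8 hepatocyte markers summed to 142500 to 182100 CPM (counts scaled to the reads in genes of a library) in young liver and 354 to 566 in young kidney. Proximal tubule markers (6 genes) summed to 10730 to 13720 CPM in young kidney and stayed below 1 CPM in young liver. Fibroblast markers (6 genes) summed to 16980 to 23350 CPM in the DMSO fibroblasts. One library stood apart: in old kidney replicate 2 the 8 hepatocyte markers lay, by their median, at 3.1% of what old liver held, against 0.143% to 0.364% in the other kidney libraries, so the RNA values of members and named genes in kidney with age are given with and without it. The Y-linked genes Ddx3y, Eif2s3y, Kdm5d and Uty had 0 counts in every kidney and liver group. In the DMSO fibroblasts both Xist (mean 72.6 CPM) and Ddx3y (34.5 CPM) were present.

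Across the 10 RNA-seq groups the members fell into liver genes, kidney genes and genes of broad expression. The levels between genes are compared as TPM, in which counts are divided by exon length before scaling to the library. In young liver Igfbp2 was the highest member at a mean of 696 TPM, followed by Igfbp1 at 361 and Igf1 at 181 TPM. In young kidney Igfbp3 was the highest at 312 TPM, followed by Ghr at 268, whereas Igf1 was the lowest at 6.63 TPM. In the fibroblasts Igfbp2 was again the highest, at 189.6 TPM with DMSO. Ghr itself reached 124 TPM in young liver and 21.3 in the DMSO fibroblasts. The 2 STAT5 genes differed in level, with Stat5b above Stat5a in the mean of every group, at 35.9 against 5.27 TPM in young liver and 26 against 8.62 in young kidney. They are close paralogs 8626 bases apart on chromosome 11, and 1.01% of the exon length of Stat5a overlaps Stat3, so reads that cannot be placed between them are uncertain. Igfbp1 and Igfbp3 also lie next to each other on chromosome 11, 3539 bases apart on opposite strands. Yet Igfbp1 had its highest means in liver, whereas Igfbp3 was lowest in liver and higher in kidney and fibroblasts.

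**Figure D1:**
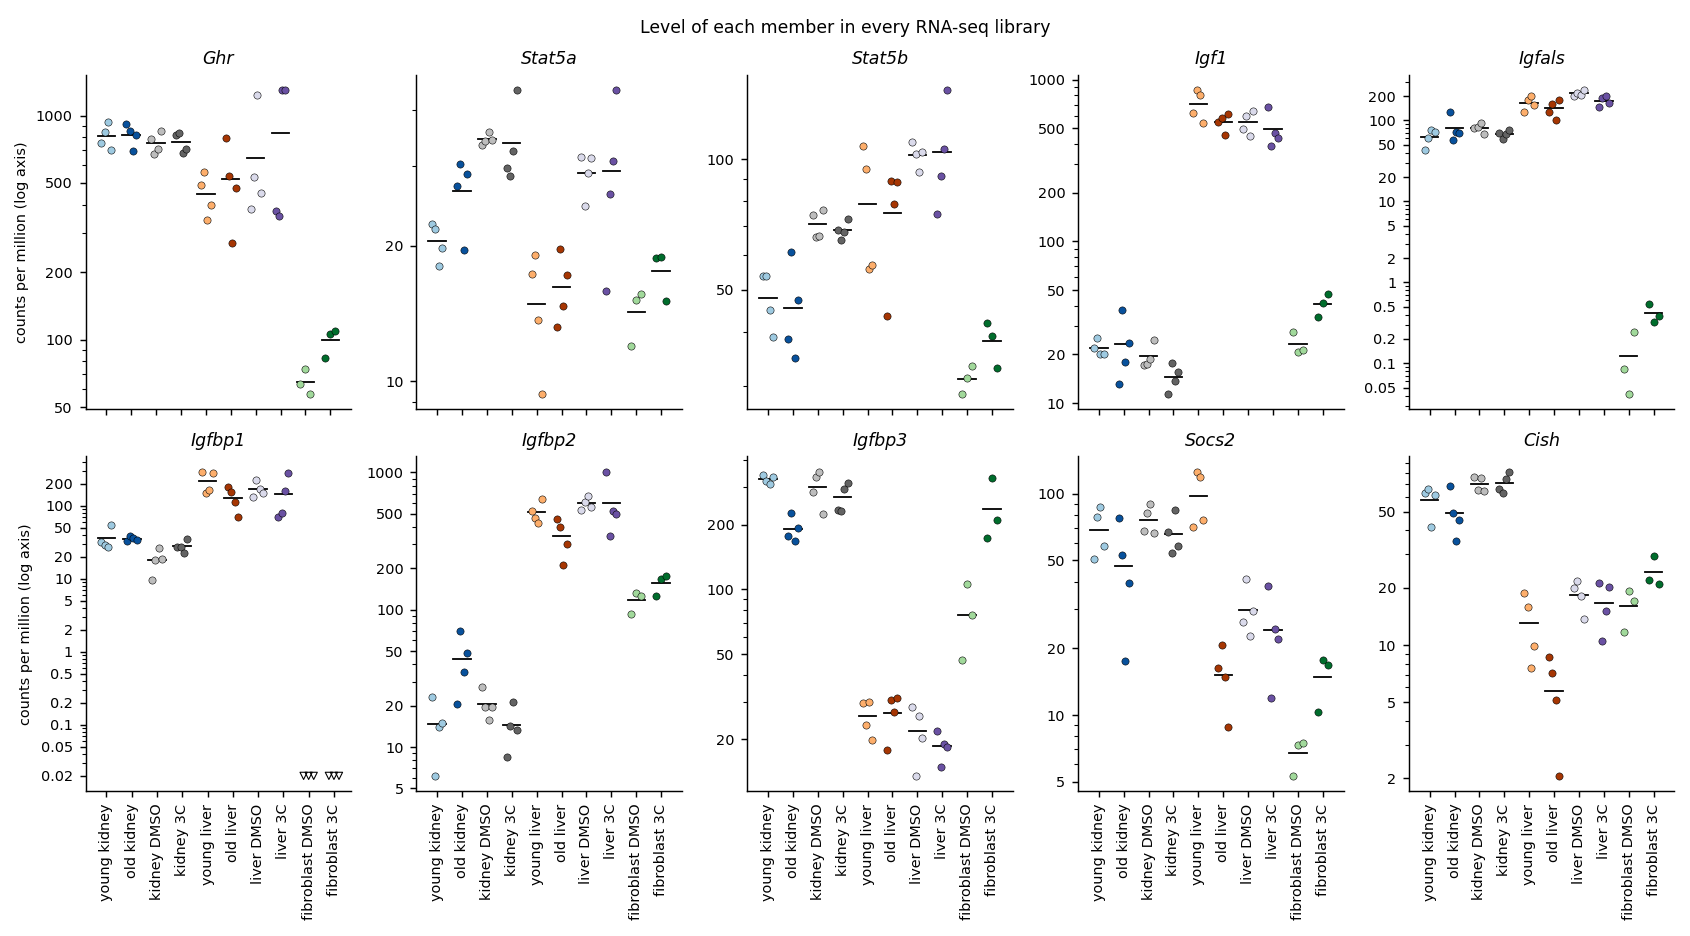
Level of each member gene in each of the 38 RNA-seq libraries, in CPM on a log axis, by group. Points are libraries, black bars are group means, and open triangles at the bottom mark libraries with 0 counts of Igfbp1. The lowest of the 16 liver libraries held 391 CPM of Igf1 and the highest of the others 47.2, whereas the lowest of the 16 kidney libraries held 169 CPM of Igfbp3 and the highest in liver 31.2.

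Ordered by mean CPM, the 4 liver groups came first for Igf1, Igfals, Igfbp1, Igfbp2 and Stat5b. For Igf1 the lowest liver group (liver 3C, 492 ± 127 CPM, SD, n = 4) did not overlap the next group (3C fibroblasts, 41 ± 6.52, n = 3), while the 4 liver groups overlapped their neighbours. Igfals stood at 217 ± 16.5 CPM in liver DMSO and 142 ± 35 in old liver, above kidney DMSO at 81.5 ± 10.4 with no overlap. Old liver and old kidney did overlap for Igfals, since old liver went down to 100 CPM and old kidney reached 126. In the fibroblasts Igfals had 7 counts over the 3 DMSO libraries and 22 over the 3 with 3C. Igfbp1 ran from 221 ± 76.5 CPM in young liver to 18.3 ± 6.83 in kidney DMSO, and had 0 counts in all 6 fibroblast libraries, which allows up to 0.125 to 0.193 CPM per library for counting error alone. Igfbp2 ran from 596 ± 289 CPM in liver 3C to 14.4 ± 5.32 in kidney 3C, with the fibroblasts between liver and kidney and apart from both. Stat5b ran from 104 ± 29.8 CPM in liver 3C to 31.1 ± 2.35 in the DMSO fibroblasts, and of its 9 neighbouring pairs only kidney 3C and young kidney did not overlap.

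Igfbp3 and Cish had their highest means in kidney. Igfbp3 ran from 326 ± 14.8 CPM in young kidney over the 3C fibroblasts (238 ± 81.5) to liver 3C (18.6 ± 2.85), and the liver groups overlapped each other. Cish ran from 71.2 ± 8.51 CPM in kidney 3C to 5.75 ± 2.84 in old liver. Socs2 had its highest mean in young liver (97.9 ± 28.5 CPM) and a lower mean in old liver (15.2 ± 4.96) than in any other kidney or liver group. Ghr had means of 447 to 832 CPM in the 8 kidney and liver groups, whose neighbours all overlapped, and lower means of 99.7 ± 14.8 and 65 ± 8.55 in the fibroblasts. Stat5a ran from 34.4 ± 0.999 CPM in kidney DMSO to 14.3 ± 1.97 in the DMSO fibroblasts with overlap at each step. Reads not aligned or not unique were tallied differently in the files of the untreated and treated mice, so values set across the series are a description.

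Young liver and young kidney were compared to describe where the axis is expressed before old age. Of the 10 members, 6 were higher in liver and 2 in kidney, against 42.6% of the 14057 genes tested called in either direction by the same rule (edgeR adjusted p under 0.05 with more than a 2-fold change). The hormone gene Igf1 stood at 626, 868, 805 and 542 CPM in young liver and 22, 25.2, 20.0 and 20.2 in young kidney, a 68.5-fold difference (log2 6.10, SE 0.19). Igfbp2 was 75.8-fold higher in liver, Igfbp1 13.2-fold and Igfals 5.62-fold. Igfals, which stabilises IGF1 in blood, still reached 42.8, 61.3, 75.5 and 71 CPM in young kidney. Igfbp3, the main carrier of IGF1 in blood, went the other way, at 29.5, 23.3, 29.9 and 19.8 CPM in liver and 342, 320.0, 309 and 335 in kidney, 6.02-fold lower in liver (log2 -2.59, SE 0.15). Cish was 2.13-fold lower in liver, a call lost without young liver replicate 3 (log2 -0.91). In bulk tissue, fewer cells of a type and less RNA per cell cannot be told apart.

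These ratios depended on the scaling. They were fitted after scaling between libraries (TMM), so they differ from the ratios of the printed CPM. With library totals alone (a setting chosen after seeing the data) the median of all genes moved by -1.08 on the log2 scale and the split of called genes went from 2369 higher and 3618 lower in liver to 1240 and 7802. Igf1, Igfbp2, Igfbp1 and Igfals stayed called as higher in liver and Igfbp3 and Cish as higher in kidney. Over the settings other than leaving out a library, the log2 value went down to 5.02 for Igf1 (main 6.10) and 1.41 for Igfals (main 2.49). Stat5b (log2 1.79, SE 0.19, against 0.72 with library totals) and Socs2 (1.59, SE 0.22, against 0.51) kept their direction and lost the call. Ghr (0.22, edgeR adjusted p 0.239, against -0.86) and Stat5a (0.60, edgeR adjusted p 0.00855, against -0.46) changed direction, so no direction can be given for them.

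Old and young liver were compared to ask which genes of the axis differ with age. The feedback gene Socs2 fell, and it was the 1 member called of 10, against 2.13% of the 12537 genes tested. Socs2 stood at 70.9, 126, 119 and 76.1 CPM in the 4 young liver libraries and at 16.4, 20.8, 14.9 and 8.80 in the 4 old ones. The highest old library lay below the lowest young one, and Socs2 was 6.61-fold lower in old liver (log2 -2.73, SE 0.30, 95% interval -3.39 to -2.06, edgeR adjusted p 0.00153). By p-value it ranked 15th of all genes tested. Socs2 was also the 1 member of 10 whose groups did not overlap, against 9.18% of all genes. Leaving out any 1 library gave log2 values of -2.87 to -2.52, and the highest edgeR adjusted p among these fits was 0.0115.

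Cish, the other feedback gene, was at 18.7, 15.8, 7.58 and 9.91 CPM in young liver and 8.62, 7.16, 5.16 and 2.06 in old liver. The groups overlapped by 1 old library, and the 2.24-fold lower estimate (log2 -1.16, SE 0.43, 95% interval -2.10 to -0.22) did not pass (edgeR adjusted p 0.218). Without old liver replicate 1, the highest of the old libraries, Cish was called (log2 -1.57, edgeR adjusted p 0.044). The old libraries held 48 to 197 reads of Cish.

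The receptor and its signal carriers did not pass in liver. Ghr stood at 488, 557, 341 and 399.9 CPM in young and 790.1, 540.0, 269 and 475 in old liver, where the old libraries spread to both sides of the young ones. The Ghr estimate of 0.22 (95% interval -0.53 to 0.97) turned to -0.22 in the lowest fit that left out 1 library. Stat5b was at 107, 95, 55.9 and 56.9 CPM in young and 43.4, 88.8, 78.8 and 88.7 in old liver, and its interval was -0.62 to 0.33 (log2). For Stat5a the log2 estimate was 0.07 (SE 0.19).

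The circulating hormone and its carriers had lower estimates in old liver that did not pass. Igf1 was at 626, 868, 805 and 542 CPM in young and 544, 584, 457 and 613 in old liver. The log2 estimate for Igf1 was -0.42 (SE 0.21, 95% interval -0.87 to 0.04, edgeR adjusted p 0.401), and 3 of the 4 old values lay inside the range of the young ones. Igfals, at 129 to 200.4 CPM in young and 100.3 to 179.9 in old liver, had an estimate of -0.31 (SE 0.22). Igfbp1 had an estimate of -0.81 (SE 0.37, edgeR adjusted p 0.335), at 294, 149, 162 and 280.2 CPM in young and 178, 153, 113 and 70.7 in old liver. Igfbp2 had an estimate of -0.63 (SE 0.31, edgeR adjusted p 0.39), at 525, 465, 427 and 644 CPM in young and 459, 401, 213 and 302 in old liver. Both Igfbp1 and Igfbp2 overlapped between the ages, with old liver holding the lowest 2 libraries of Igfbp1 and the lowest 3 of Igfbp2. Igfbp3 was low in liver and the estimate was -0.03 (SE 0.17). The median log2 estimate of the 10 members was -0.36, and that of all genes tested was 0.00.

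**Figure D2:**
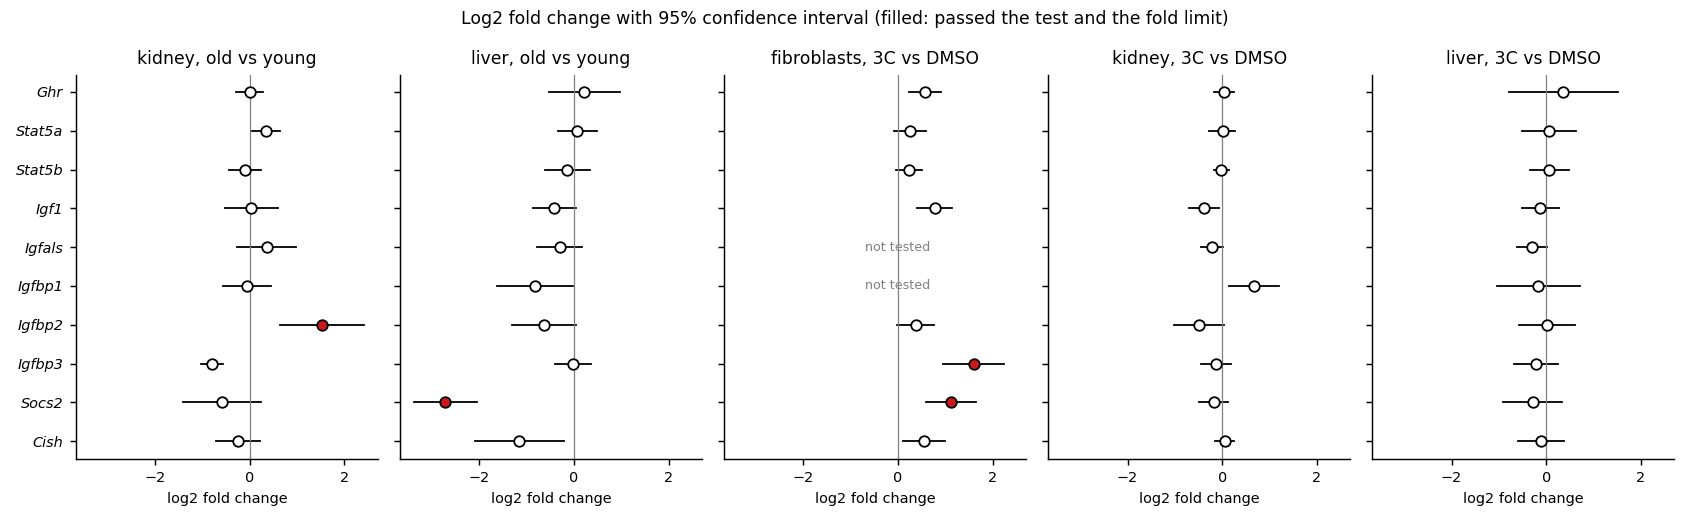
Log2 fold change of each member gene in each comparison, from edgeR, with 95% intervals as bars. Filled points are called (edgeR adjusted p under 0.05 with more than a 2-fold change), open points are not; in liver with age Socs2 at -2.73 stood apart from the other members, and in the kidney and liver of mice given 3C no member was called.

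Genes that growth hormone is known to set in the liver were lists apart from the 10 members. These lists were chosen with earlier results of these data known. The male list holds Mup20, which the paper names among genes downregulated with age, so its count is not independent of these data. Of the liver genes of the male pattern, 13 of 16 were tested, 9 fell in old liver and 0 rose, against the 2.13% of all genes called in either direction, with a median log2 of -2.19 against 0.00 for all genes tested. Slco1a1, an organic anion transporter, went from 137 to 382 CPM in young liver to 0.875 to 1.59 in old liver (log2 -7.84, SE 0.39, 229-fold lower). Hsd3b5, a steroid reductase, had 3052 counts over the 4 young libraries and 6 over the 4 old ones. Cyp2d9, a cytochrome P450 with close paralogs that can share its reads, fell 14.7-fold from 62.1 to 75.1 CPM to 2.78 to 8.28. Adgrf1, an adhesion receptor gene, had 889 counts in young liver and 10 in old liver. With so few old counts, Hsd3b5 and Adgrf1 passed the filter on low counts only through young liver. A fall was thus the only direction open to them, which limits the count and the median of this list. These mice were female by the study's methods, and the count of 8 to 10 genes that fell held over all alternatives. In the DMSO livers of 20 to 21 months Slco1a1 was at 1.64 to 4.89 CPM.

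Of the liver genes of the female pattern, 19 of 20 were tested, 5 rose and 2 fell, against the same 2.13% of all genes called, with a median log2 of 0.66 against 0.00. Cyp3a44 (log2 2.35) and Cyp3a41a (1.64) rose, both cytochrome P450 genes so alike that reads may be misplaced between them, and Prom1 (2.48), which marks cells of the bile ducts as well, rose too. Cyp2c40 fell (log2 -1.49), so the list did not move one way. Over the alternatives, 2 to 8 genes of this list rose and 0 to 4 fell.

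**Figure D3:**
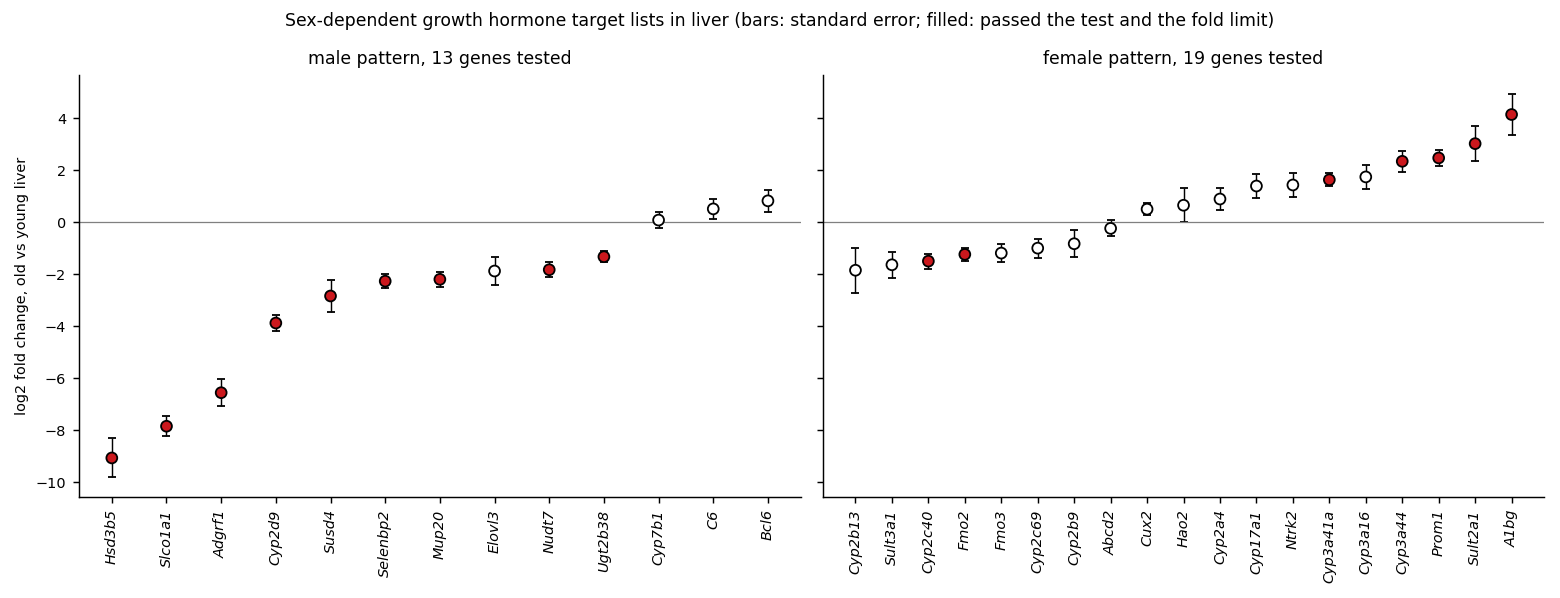
Log2 fold change between old and young liver for the tested genes of the growth hormone lists, from edgeR, with standard errors as bars and filled points for called genes. The 13 tested genes of the male pattern had a median of -2.19 and the 19 of the female pattern one of 0.66.

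Of the other signal carriers and brakes, 25 of 26 were tested in liver, 2 rose and 0 fell, against 2.13% of all genes called. Socs3, a brake on cytokine receptors and on the growth hormone receptor, rose from 1.98 to 4.76 CPM in young to 7.72 to 55.3 in old liver (log2 2.66, SE 0.61, edgeR adjusted p 0.0479). Stat3, a transcription factor of the interleukin-6 response, rose 2.04-fold (edgeR adjusted p 0.0447). With the replicate number as a block neither was called, and over all alternatives 0 to 2 genes of this list rose. Of the other ligands, receptors and binding proteins (Igf2, Igf1r, Insr and others) 8 of 15 were tested and 0 passed, and of the genes that answer to fasting and insulin 0 of 14 passed. Of the acute phase and cytokine response genes, 5 of 14 rose, against 2.13% of all genes, among them Lcn2 (log2 6.37), Saa1 (6.31) and Orm2 (4.73), and 0 to 9 rose over the alternatives, with 0 without any 1 young liver library. Among marker lists, 2 of 7 macrophage and 4 of 5 B and plasma cell genes rose in old liver, against 2.13% of all genes, and 0 of 8 hepatocyte genes passed. The summed hepatocyte markers were 142500 to 182100 CPM in young and 93030 to 140000 in old liver, without overlap. The summed macrophage markers were 508 to 760 CPM in young and 858 to 1676 in old liver. Their part in the member changes was not tested.

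In the ATAC-seq data of liver, 213 of 353652 merged peak regions lay in or within 10 kb of a member gene. Of these, 3 had a peak in all 3 young libraries and in no old library and 0 the reverse, against 1.53% of all regions that were lost or gained in this way. The member share thus lay near that of all regions, and it moved to either side of it with the setting. It was 4 of 66 regions (6.06%, against 4.84% of all) with peaks of −log10 q of at least 5, 1 of 168 (0.595%, against 1.53%) in gene bodies alone, and 5 of 344 (1.45%, 1 of them gained) with 50 kb either side. When any 1 library was left out, which asks for fewer libraries, the count was 4 to 11. The share of all regions under that looser rule is not given here, so this count cannot be set against 1.53%. The 3 regions lay at 3 different genes, Ghr, Socs2 and Cish. The young libraries had 123776 to 130409 peak intervals in all and the old ones 112125 to 136849. For Socs2 the lost region was chr10:95398435-95399095 in the gene body, with fold enrichments over local background of 3.19, 3.64 and 3.17 in the young libraries, and it held the gene body sequence shown above. For Cish it was chr9:107305123-107305391, 6095 bases from the nearest start, with 3.08, 2.56 and 3.36. For Ghr it was chr15:3584253-3584741, just upstream of the nearest start, with 2.84, 3.36 and 2.43. For scale, the highest promoter peak had a median of 5.09 in young liver over the 12884 genes with one in all 6 libraries. Those genes were selected for promoter peaks present throughout, so this is not a like measure for these 3 regions. A second Socs2 region with the palindrome, chr10:95426037-95426736 in the upstream flank, had peaks in 3 young and 1 old libraries.

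Promoter peaks of the members were present in liver at both ages. A peak within 1 kb of a start site was present in all 6 liver libraries for 9 of 10 members, against 52.5% of all genes, and Igfbp3, which was low in liver RNA, had none in any liver library. At the Socs2 promoter the fold enrichment was 5.08, 4.26 and 4.71 in young and 5.78, 4.51 and 5.50 in old liver, so the values overlapped while the RNA fell. At the Cish promoter it was 3.97, 3.38 and 3.75 in young and 4.70, 3.43 and 3.79 in old liver. The 1 member whose young and old promoter values did not overlap was Stat5b, with 4.05, 2.89 and 4.23 in young liver and 6.18, 4.64 and 4.49 in old liver, against 14.4% of genes with a peak in all 6 libraries. These promoter values are given as a description, without a test. The palindrome was found within 200 bases around the summit in 15 of the 213 member regions (7.04%) and in 5.82% of all liver regions. The strongest of these by fold enrichment were a Ghr flank region (2 young libraries, 5.28), an Igfbp2 flank region with the copy TTCAACGAA (all 6 libraries, 4.50), the Cish promoter (all 6, 3.84) and an Igf1 gene body region (all 6, 3.59).

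**Figure D4:**
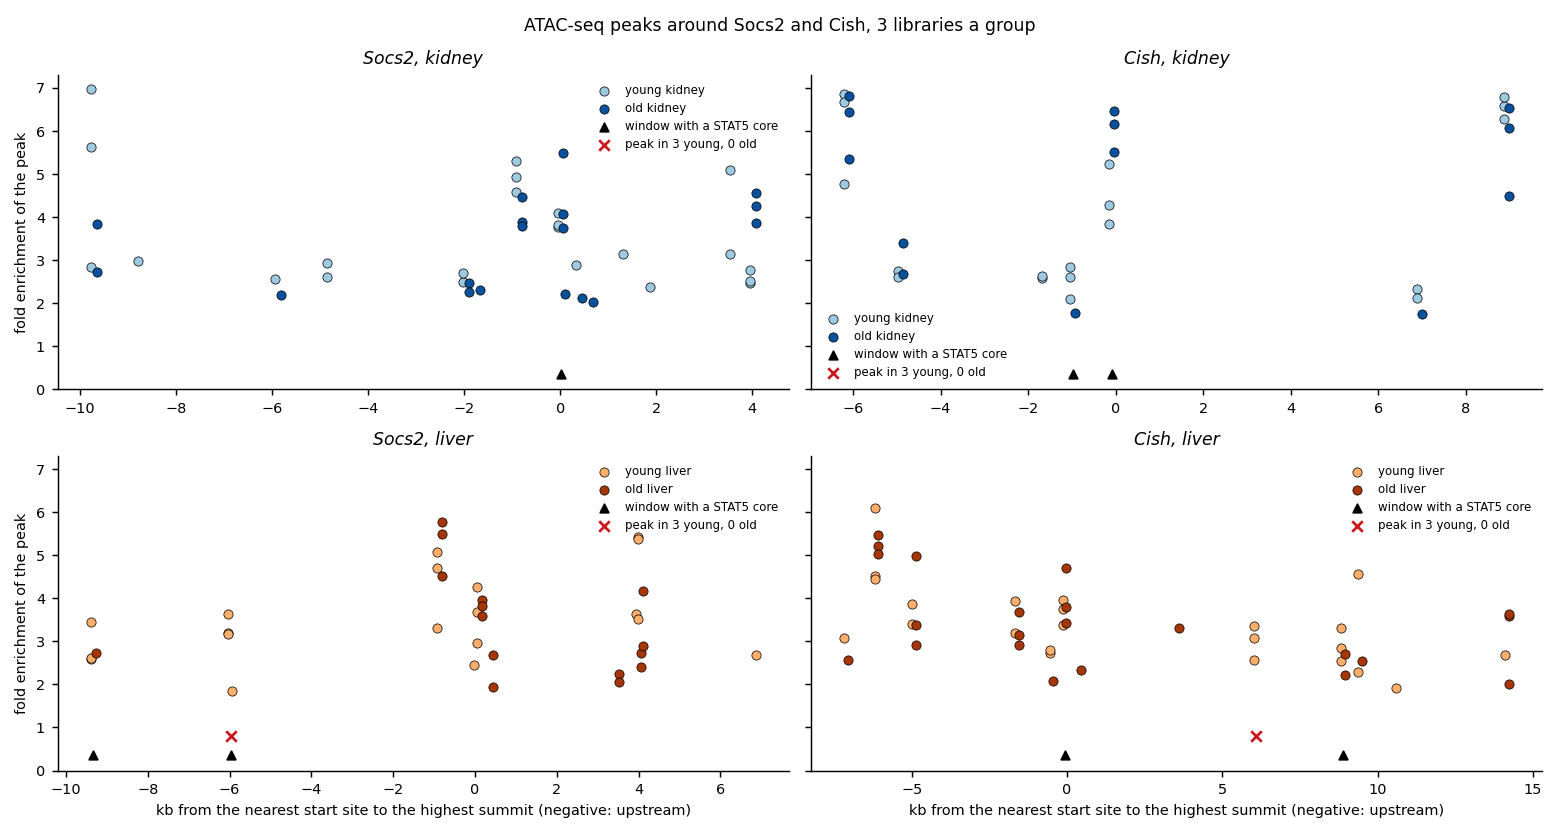
Fold enrichment of ATAC-seq peaks in or near Socs2 and Cish, in kidney and liver, against the distance in kb of the summit from the nearest start site; each point is a library, with young and old drawn slightly apart. Triangles mark regions whose 200-base window at the summit holds the STAT5 palindrome, and red crosses mark the 2 liver regions with a peak in 3 young and 0 old libraries, 1 at Socs2 and 1 at Cish.

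Old and young kidney were compared in the same way. Igfbp2 rose and was the 1 member called of 10, against 6.08% of the 14495 genes tested. Igfbp2 stood at 23.2, 6.17, 14 and 15 CPM in young and 20.7, 69.6, 35.4 and 48.1 in old kidney, 2.87-fold higher (log2 1.52, SE 0.40, 95% interval 0.63 to 2.42, edgeR adjusted p 0.0373). The lowest old library lay below the highest young one. The library with the highest value was old kidney replicate 2, whose hepatocyte markers were at 3.1% of the old liver level, a share that would bring 10.7 CPM of Igfbp2. Without that library Igfbp2 was still called (log2 1.24, SE 0.37, edgeR adjusted p 0.0387), and with the hepatocyte markers as a covariate (chosen after seeing the data) it was called at a log2 of 1.22 (edgeR adjusted p 0.0452). The call was lost without young kidney replicate 2 (log2 1.26), 3 (1.49) or 4 (1.57) and without old kidney replicate 3 (1.58) or 4 (1.49), with edgeR adjusted p from 0.0531 to 0.105, and with the replicate number as a block (1.53, edgeR adjusted p 0.113). In the DMSO kidneys of 20 to 21 months Igfbp2 was at 15.7 to 27.5 CPM, which across the series is a description.

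Igfbp3 was lower in old kidney, within the fold limit of 2. Its level was 342, 320.0, 309 and 335 CPM in young and 177, 227, 169 and 194 in old kidney, so all old libraries lay below all young ones. The ratio was 1.75-fold (log2 -0.80, SE 0.10, 95% interval -1.03 to -0.57, edgeR adjusted p 0.00162), and leaving out any 1 library gave -0.86 to -0.76, with -0.86 (edgeR adjusted p 0.00166) without old kidney replicate 2. By adjusted p alone 2 of 10 members passed, Igfbp2 and Igfbp3, against 11.5% of all genes. Igfbp3 was also the 1 member of 10 whose groups did not overlap, against 17.3% of all genes.

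The other members did not pass in kidney. Socs2 was at 50.9, 78.7, 87.5 and 57.9 CPM in young and 78.2, 52.9, 17.5 and 39.5 in old kidney, with 2 old libraries below the young range (log2 -0.58, SE 0.37, edgeR adjusted p 0.308). Cish was at 62.7, 65.8, 41.5 and 61.4 CPM in young and 68.3, 49.5, 35 and 45.6 in old kidney (log2 -0.25, SE 0.21). The receptor gene Ghr was at 752, 848, 932 and 699 CPM in young and 912, 856, 693 and 820.2 in old kidney, with a 95% interval of -0.29 to 0.28. Stat5a had the estimate 0.33 (SE 0.13, edgeR adjusted p 0.132) and Stat5b -0.11 (SE 0.15). Igfals, at 42.8 to 75.5 CPM in young kidney and 126, 57.7, 71.5 and 70.5 in old kidney, had an estimate of 0.36 (SE 0.28) that was 0.04 without old kidney replicate 1. For Igfbp1 the estimate was -0.06 (SE 0.23). Without old kidney replicate 2 none of these 7 genes passed in edgeR either, with log2 estimates of -0.62 for Socs2, -0.22 for Cish, 0.00 for Ghr, 0.29 for Stat5a, -0.25 for Stat5b, 0.51 for Igfals and -0.08 for Igfbp1.

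Igf1 did not pass in kidney, and the sign of its estimate depended on single libraries. It was at 22, 25.2, 20.0 and 20.2 CPM in young and 13.1, 37.9, 17.9 and 23.5 in old kidney (log2 0.03, SE 0.25, edgeR adjusted p 0.952). The share of hepatocyte markers in old kidney replicate 2 would bring 17.0 CPM of Igf1, and its value was the highest of the 8. Without that library the estimate was -0.28, without old kidney replicate 1 it was 0.21, and with the hepatocyte covariate -0.33, and none of these passed in edgeR.

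**Figure D5:**
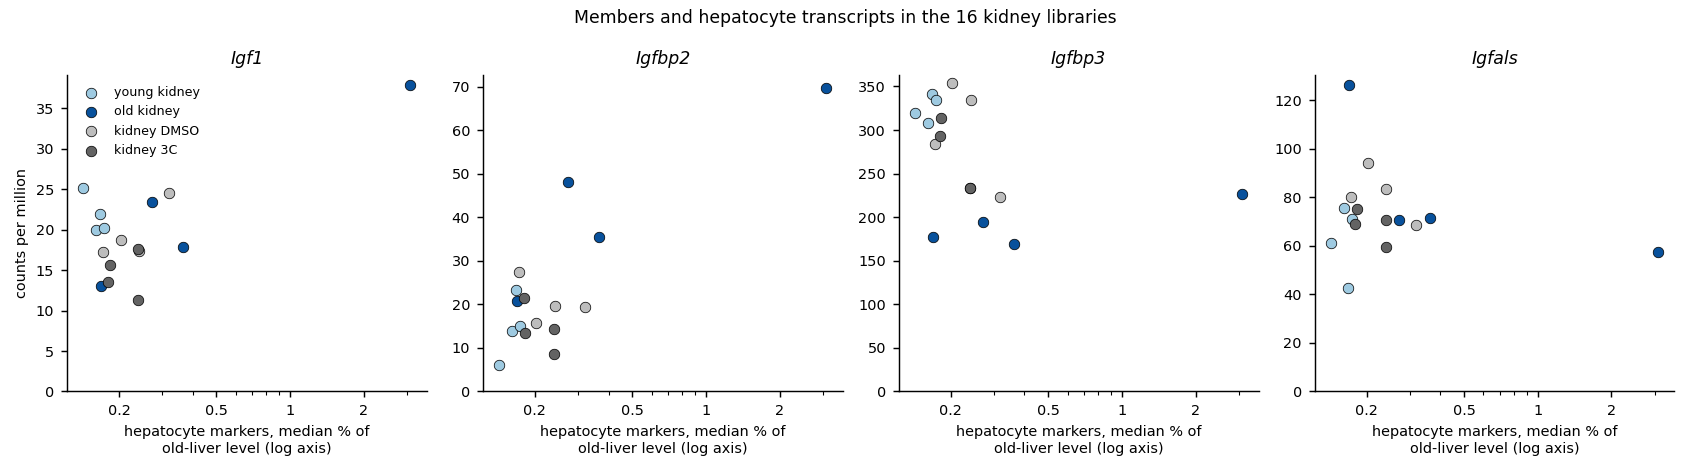
CPM of Igf1, Igfbp2, Igfbp3 and Igfals in the 16 kidney libraries against the hepatocyte marker level, as the median percent of the old liver level on a log axis. Old kidney replicate 2 lies at 3.1%, and all other kidney libraries lie between 0.143% and 0.364%.

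Among other genes of the axis, 4 ligand, receptor and binding protein genes rose in old kidney. Of the other ligands, receptors and binding proteins, 13 of 15 were tested, 4 rose and 0 fell, against the 6.08% of all genes called in either direction. Igf2, the second IGF ligand, went from 14.0 to 31.8 CPM in young kidney to 199 to 448 in old kidney, 14-fold higher (log2 3.80, SE 0.38, edgeR adjusted p 0.000655). Pappa2, a protease that frees IGFs from binding proteins, had 28 counts in young and 466 in old kidney, and Ghrhr, the receptor gene for growth hormone-releasing hormone, 5 and 202. With so few young counts, Pappa2 and Ghrhr passed the filter on low counts only through old kidney. A rise was thus the only direction open to them, which limits what the count of risers shows. Stc1 also rose (log2 1.06), and 2 genes of the list rose without young kidney replicate 3 or without old kidney replicate 4. Without old kidney replicate 2 the 4 genes that rose were again Igf2 (log2 3.92), Pappa2 (2.95), Ghrhr (4.64) and Stc1 (1.13), against 8.22% of the 14519 genes tested in that fit. Of the 26 signal carriers and brakes, Socs3 rose (log2 2.80, and 2.87 without that library) and 0 fell. Without that library Foxo3 (-1.17), a transcription factor that insulin signalling holds back, and Irs2 (-1.25), an adaptor of the insulin receptor, also passed as lower, so that 3 of 26 were called against 8.22% of all genes, where it had been 1 of 26 against 6.08%. In the same libraries 6 of 6 tested macrophage markers, 5 of 5 B and plasma cell markers and 3 of 4 T cell markers rose, with summed macrophage markers of 97.3 to 124 CPM in young and 330 to 679 in old kidney. Summed proximal tubule markers were 10730 to 13720 CPM in young and 7847 to 9686 in old kidney, and 0 of these 6 genes passed. Without old kidney replicate 2 the same counts held for macrophage (6 of 6), B and plasma cell (5 of 5) and T cell markers (3 of 4), and 1 proximal tubule gene, Lrp2, passed as lower (log2 -1.06). Their part in the member changes was not tested.

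In kidney chromatin 212 of 255698 regions lay in or within 10 kb of a member. Of these, 3 had a peak in all 3 young and in no old library and 0 the reverse, against 1.85% of all regions. Here too the member share moved to either side of that of all regions, with 8 of 323 (2.48%, against 1.85%, 2 of them gained) with 50 kb either side and 3 of 76 (3.95%, against 3.55%, 1 of them gained) with peaks of −log10 q of at least 5. When any 1 library was left out, which asks for fewer libraries, the count was 4 to 10. The share of all regions under that looser rule is not given here, so this count cannot be set against 1.85%. They lay in the gene bodies of Igf1 (chr10:87863307-87863601), Igfals (chr17:24869293-24869831) and Stat5a (chr11:100870298-100871183). The Igfals region had fold enrichments of 2.62, 3.77 and 4.46 and held the copy TTCTCAGAA, and the Stat5a region had 3.25, 4.05 and 2.68 and held TTCAGGGAA. Old kidney libraries had fewer peak intervals (93072 to 108970) than young ones (115836 to 128395), and the part of this in the lost regions was not tested.

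Promoter peaks in all 6 kidney libraries were present for 9 of 10 members, against 58.1% of all genes, and Igfbp2 had one in 1 of 6 libraries. At the Cish promoter the fold enrichment was 3.85, 5.23 and 4.29 in young and 6.17, 5.51 and 6.46 in old kidney, without overlap. At Igfals it was 4.47, 4.35 and 4.74 in young and 3.12, 3.03 and 4.11 in old kidney, also without overlap. These were 2 of the 9 members, against 25.1% of all genes with a peak in all 6 libraries. The palindrome was in 19 of the 212 member regions (8.96%) and in 6.12% of all kidney regions. The strongest of these were the Cish promoter (5.25, with the start site pair shown above), the Igf1 gene body pair shown above (4.22), a Stat5a gene body region (4.22) and the Socs2 promoter pair shown above (4.16, all 6 libraries). Pairs were found in 0.224% of all kidney regions and 0.191% of all liver regions.

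Whether the change with age differed between liver and kidney was tested as an interaction. It passed for 2 of 10 members, Socs2 and Igfbp3, against 1.72% of the 15036 genes tested. For Socs2 the log2 change in liver minus that in kidney was -2.10 (SE 0.51, edgeR adjusted p 0.0483), and for Igfbp3 it was 0.82 (SE 0.19, edgeR adjusted p 0.0399). Igfbp2 was higher in old kidney and lower in old liver by its estimates, and the difference of -2.09 (SE 0.55) missed the threshold in edgeR (adjusted p 0.0665). It passed in DESeq2 (adjusted p 0.00579), and in edgeR without old kidney replicate 1 (adjusted p 0.0425) or old liver replicate 1 (adjusted p 0.0239). With the replicate number as a block neither Socs2 (edgeR adjusted p 0.0718) nor Igfbp3 (edgeR adjusted p 0.092) passed, nor did they with library totals alone (0.06 and 0.141), and Igfbp3 did not with no filter on low counts (0.0607). Each was lost in 14 of the 16 fits that left out 1 library, old kidney replicate 2 among them (edgeR adjusted p 0.0677 for Socs2 and 0.0593 for Igfbp3). The Socs2 difference still passed without old kidney replicate 3 or old liver replicate 1, and the Igfbp3 difference without young liver replicate 3 or old liver replicate 1, and the log2 values over these fits were -2.41 to -1.67 and 0.74 to 0.92.

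In skin fibroblasts, DMSO and 3C were compared. Igfbp3 and Socs2 rose, 2 of the 8 members tested, against 1.87% of the 13449 genes tested. Igfbp3 stood at 46.7, 106 and 76.1 CPM with DMSO and 174, 329.9 and 211 with 3C, 3.04-fold higher (log2 1.60, SE 0.29, 95% interval 0.95 to 2.25, edgeR adjusted p 0.0151). Socs2 stood at 5.31, 7.35 and 7.47 CPM with DMSO and 10.3, 17.7 and 16.8 with 3C, 2.16-fold higher (log2 1.11, SE 0.24, 95% interval 0.59 to 1.64, edgeR adjusted p 0.0285). For both genes every 3C library lay above every DMSO library, as was so for 5 of the 8 members tested (also Ghr, Igf1 and Cish), against 25.8% of all genes whose groups did not overlap in either direction. Both calls depended on single libraries. Igfbp3 was lost without DMSO replicate 3 (log2 1.62, edgeR adjusted p 0.0882) or 3C replicate 2 (1.29, 0.0518), and Socs2 without DMSO replicate 1 (0.97), 2 (1.18) or 3 (1.21) or 3C replicate 2 (0.96).

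Igf1 was at 27.4, 20.6 and 21.3 CPM with DMSO and 34.2, 41.5 and 47.2 with 3C. The groups did not overlap, and the 1.72-fold difference (log2 0.78, SE 0.17, edgeR adjusted p 0.0305) lay within the fold limit. By adjusted p alone 3 of 8 members passed, against 4.22% of all genes. Igf1 no longer did with the replicate number as a block (edgeR adjusted p 0.0587), or without DMSO replicate 2 or 3 or 3C replicate 2 or 3 (edgeR adjusted p up to 0.138). Ghr was at 63.6, 74.1 and 57.2 CPM with DMSO and 82.7, 106 and 109.8 with 3C (log2 0.57, SE 0.15, edgeR adjusted p 0.061). Cish was at 11.7, 19.2 and 17 CPM with DMSO and 22, 29.4 and 20.9 with 3C (0.55, SE 0.20, edgeR adjusted p 0.152). Igfbp2, Stat5a and Stat5b had estimates of 0.37, 0.25 and 0.24 and did not pass. All 8 estimates were positive, with a median of 0.56 against 0.01 for all genes tested. Of the other ligands, receptors and binding proteins 0 of 12 passed. The summed fibroblast markers were 16980 to 23350 CPM with DMSO and 17890 to 23410 with 3C. Summed macrophage markers were lower without overlap, at 62.8 to 75.8 CPM with DMSO and 33.8 to 51.9 with 3C, and 0 of 5 tested passed. The 1 hepatocyte marker tested was called lower (log2 -3.13), in a list that summed to at most 3.61 CPM. Their part in the member changes was not tested.

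In the mice of 20 to 21 months, kidney and liver with DMSO and with 3C were compared. In kidney 0 of 10 members were called, and 0% of the 14974 genes tested. In liver 0 of 10 members were called, and 0% of the 13042 genes tested. At an unadjusted p under 0.05 edgeR gave 1786 genes and 2 members in kidney, Igf1 (log2 -0.39, SE 0.15) and Igfbp1 (0.67, SE 0.24), and 436 genes and 0 members in liver. DESeq2 called 8 genes in kidney and 2 in liver, and no member. Igf1 in kidney stood at 17.2, 17.4, 18.7 and 24.5 CPM with DMSO and 11.4, 17.6, 13.6 and 15.6 with 3C, and the groups overlapped.

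Liver Igfals stood at 202, 219.7, 208 and 239 CPM with DMSO and 146, 187, 198 and 163 with 3C. The 4 values with 3C lay below the 4 with DMSO, for this 1 member of 10, against 1.79% of all genes whose groups did not overlap in either direction, and the log2 estimate of -0.29 (SE 0.14, 95% interval -0.61 to 0.02) did not pass (edgeR adjusted p 1). Ghr spread widely in these livers, at 384, 531, 1233 and 449.8 CPM with DMSO and 375, 357, 1303 and 1293 with 3C, so that 1 DMSO and 2 3C libraries stood at more than 2 times the others and the interval was -0.79 to 1.51. Igfbp3, which rose with 3C in fibroblasts, had estimates of -0.12 (95% interval -0.44 to 0.19) in kidney and -0.22 (-0.69 to 0.25) in liver. Socs2 had -0.18 (-0.48 to 0.12) and -0.29 (-0.91 to 0.34). Whether fibroblasts and tissues differed was not tested, since the series were fitted apart. The difference of the 3C effect between liver and kidney passed for 0 of 10 members and 0% of 15526 genes, with 554 genes and 0 members at an unadjusted p under 0.05 in edgeR and 0 genes in DESeq2.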

How the data were processed

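RNA-seq (38 libraries) and ATAC-seq (12 libraries) were read as deposited, and groups were taken from the sample labels. The authors trimmed reads with Trimmomatic 0.39, aligned RNA-seq reads with HISAT2 2.2.1 to mm10 and counted reads per gene with HTSeq 0.12.4 without strand, so the deposited RNA-seq values are whole-number counts. Reads of overlapping genes on opposite strands, and of close paralogs, cannot be told apart in such counts. For ATAC-seq the authors aligned with Bowtie2 2.3.5.1 and called peaks per library with MACS2, and the deposited peak lists give a fold enrichment (a ratio over local background) besides −log10 p and −log10 q values. No depth is given with the peak lists. DiffBind 2.12.0 is named in the submitters' processing notes.

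Each comparison was fitted on its own libraries in edgeR 4.0.16 (R 4.3.3) with TMM scaling, filterByExpr (minimum count 10), the two-sided quasi-likelihood test and Benjamini-Hochberg adjustment over all genes tested. The scripts were tested on simulated data. CPM were taken over the reads in genes, and TPM used GENCODE vM21 exon lengths, found for 98.2% of genes. Peaks of a tissue were merged into regions, assigned by an overlap of at least 1 bp to gene bodies with 10 kb either side. No peak lay beyond a GRCm38 chromosome end. Replicate pairs, 54 in all, differed beyond sampling noise (smallest chi-square per degree of freedom 8.15). Between 8.05% and 21.3% of reads lay outside genes or were ambiguous. Biological coefficients of variation (common dispersion) were 0.237 in kidney and 0.292 in liver with age, and 0.153, 0.12 and 0.221 in fibroblasts, kidney and liver with 3C.

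Same-numbered libraries of young liver and kidney had correlated deviations (4 of 4 correlations over 0.1, 0.104 to 0.452). Libraries with different numbers were not compared, so whether the numbers pair the libraries was not settled. The block changed no call of a member there. The members, gene lists and tests were chosen with earlier results of these data known. All 10 members are named, at most 4 called genes with the smallest p of each other list, the member regions lost or gained, and up to 4 regions with the palindrome and the highest fold enrichment per tissue. Alternatives were DESeq2 1.42.0, RLE size factors, other filters, the block, leaving out each library, and for peaks other thresholds, overlaps and flanks. The covariates and library totals alone were chosen after seeing the data.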

Additional observations from a re-analysis of the deposited data

Results flagged for a closer look

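Hepatocyte marker levels in kidney held values that stood far from the rest of their group of 4. In old kidney replicate 2 the markers were at 3.1% of the old liver level and Alb at 2960 CPM, each with a gap to the nearest library of more than 0.829 of the group's range (0.933 and 0.99). In young kidney, replicate 1 had 10.5 CPM of Alb, below the other 3 libraries (gap 0.924 of the range). Of the members, 80 groups of 4 values were examined in the same way and 0 stood out, and chance flags about 1 in 20 groups.

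The change with age differed between liver and kidney by the interaction test for Igfbp3 (log2 0.82, edgeR adjusted p 0.0399) and Socs2 (log2 -2.10, edgeR adjusted p 0.0483). Igfbp3 was lower in old kidney (-0.80) and near 0 in liver (-0.03), whereas Socs2 was lower in old liver (-2.73) and had an estimate of -0.58 in kidney. With the replicate number as a block neither difference passed (edgeR adjusted p 0.092 for Igfbp3 and 0.0718 for Socs2), and each was lost in 14 of the 16 fits that left out 1 library.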

How the results depend on the processing

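Over all alternatives 1314 values of members were computed, of which 1186 kept their direction and side of the threshold, 48 lost the threshold and 7 gained it. The other 73 changed direction and were called in neither fit, and no value called in either fit changed sign. The number of members called in kidney with age was 2 by adjusted p alone, 0 with the replicate block, and 0 to 1 without single libraries. In liver with age it was 1 to 2 without single libraries, and in fibroblasts 0 to 2. For the interaction of age and tissue it was 1 with no filter on low counts, 0 with the replicate block, 0 with library totals alone, 3 in DESeq2 and 0 to 3 without single libraries, with 3 without old liver replicate 1, where Igfbp2 joined Socs2 and Igfbp3. Outside the young tissues fewer than all same-numbered pairs had correlations over 0.1 (1 of 4 in kidney with age, 1 of 4 in liver with age, 1 of 3 in fibroblasts, 0 of 4 and 2 of 4 in kidney and liver with 3C, and between kidney and liver 2 of 4 in old, 1 of 4 in DMSO and 2 of 4 in 3C mice), and the block changed no other call of a member. Genes called in liver with age were 212 higher and 55 lower, against 483 and 112 in DESeq2, 91 and 48 with the block, and 109 and 44 with the percent of reads outside genes as a covariate, so that the share higher went from 79.4% to 65.5% with the block. In kidney with age, 59 genes were lower, against 105 in DESeq2 and 408 with the hepatocyte covariate (share higher 93.3% against 68.6%). For the interaction 131 genes were higher and 127 lower, against 335 and 405 in DESeq2, 63 and 75 with the block and 66 and 106 with library totals alone (share higher 38.4% against 50.8%). Member regions lost or gained in kidney were 3, against 8 with a flank of 50 kb and 4 to 10 without single libraries. In liver they were 3, against 1 in gene bodies alone, 5 with a flank of 50 kb and 4 to 11 without single libraries. Leaving out a library loosens the rule for regions in both tissues, and the share of all regions under it is not given. Fibroblast Igfals (7 and 22 counts) was too low to be tested.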

Other observations

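Genes whose log2 CPM followed each member most closely over the 38 RNA-seq libraries, among 13572 genes, were Mipep for Ghr (Pearson r 0.943), Mgst1 for Igf1 (0.991), Stard10 for Igfals (0.994), Afm for Igfbp1 (0.99), Lgals9 for Igfbp2 (0.967), Hoxa7 for Igfbp3 (0.97), Diaph1 for Stat5a (0.885), Stard13 for Stat5b (0.935), Itih5 for Socs2 (0.859) and Tuft1 for Cish (0.935). The libraries fall into clusters by tissue, and the genes share libraries and depth. Mgst1, a membrane glutathione transferase, and Afm, a vitamin E binding protein of plasma, are known for high levels in liver.

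In old kidney, liver genes of the growth hormone lists were counted too, against the 6.08% of all genes called. In old kidney replicate 2 the hepatocyte markers were at 3.1% of the old liver level, so each value is followed by the one without that library. Of the male pattern 13 of 16 were tested, 3 rose (Cyp2d9 with log2 1.53 and 1.55, C6 with 3.77 and 3.69, Cyp4a12a with 2.25 and 2.45) and Ugt2b38 fell (-1.21 and -1.09). Cyp2d9 thus rose in old kidney, from 15.7 to 25.8 CPM to 48.8 to 71.0, and fell in old liver. Of the female pattern 9 were tested and 0 passed, and without that library 1 did, Cyp2a4 (1.02), against 8.22% of all genes called in that fit. Among the fasting and insulin responsive genes Pck1 (log2 -1.59 and -1.59), the gluconeogenic enzyme, and Pdk4 (-1.25 and -1.31) fell in old kidney, 2 of 11 tested.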
